A study of Mus musculus with 6 samples.

Results

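Oxidative phosphorylation genes are described here in mouse brain shortly after the opioid receptor antagonist naloxone. A gene belonged to the set when its single symbol in the platform annotation started with Nduf (complex I), was Sdha, Sdhb, Sdhc or Sdhd (complex II), started with Uqcr or was Cyc1 (complex III), started with Cox followed by 4 to 8 (complex IV), started with Atp5 (complex V), or was Cycs, cytochrome c. The rule found 67 of the 6214 genes with a single symbol. Complex I had 36 of them, complex II 4, complex III 7, complex IV 9, complex V 10 and cytochrome c 1. Of the 67 genes, 66 passed the filter on missing values and 65 had a value on all 6 arrays. The gene that did not pass was Uqcrq, a small subunit of complex III, which had values on 3 arrays. They were -1.27 and 0.57 on NY1DD arrays 1 and 2, against 1.69 on C57BL/6J array 1.

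Total RNA from brains of male mice aged 9 weeks was hybridised to 6 two-colour BMAP cDNA microarrays, whose spotted clones come from a brain cDNA collection. On every array the Cy5 channel held RNA collected 10 min after naloxone, and the Cy3 channel held RNA of the same strain collected 10 min after saline. NY1DD mice, a transgenic line that models sickle cell disease by carrying human sickle globin, filled 3 arrays. The other 3 arrays held wild-type C57BL/6J mice. The sources used here give neither dose nor route. Whether each array, or its saline RNA, had animals of its own is not stated either, so every p-value is set against the spread between arrays. In brain tissue, fewer cells of a type and less RNA per cell cannot be told apart.

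Each value is a log2 ratio, likely of naloxone over saline, after each array was centred on its median. The numerator is not stated in the sources used here, and in the reverse case every sign turns. No array had the dyes swapped, so naloxone and a dye bias shared by all arrays cannot be told apart in a strain's mean or in their average; the bias drops out of NY1DD minus C57BL/6J. Ratios carry no level, so the genes cannot be ranked by abundance, and signal over background is not known for any spot.

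The respiratory chain sits in the inner mitochondrial membrane. Complex I takes electrons from NADH and complex II takes them from succinate. Both pass them through ubiquinone to complex III, cytochrome c and complex IV, which reduces oxygen. Complexes I, III and IV pump protons, and complex V, the ATP synthase, uses the returning protons to make ATP. Neurons draw most of their ATP from this route to power ion pumps and synapses. The set holds nuclear genes; the subunits encoded by mitochondrial DNA were not analysed here.

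Of the 66 measured genes, 0 passed limma's test at a Benjamini-Hochberg adjusted p under 0.05 in NY1DD, in C57BL/6J, in the difference between strains or in the average of both strains. The share of all 9685 features that passed was 0% in each of the 4 comparisons. The lowest adjusted p among the 66 genes was 0.489 in NY1DD, 0.302 in C57BL/6J, 0.969 in the difference and 0.314 in the average. Without adjustment, 6 genes had a p under 0.05 in at least 1 comparison. All of them are genes of complex I except Atp5b, the beta subunit of ATP synthase. They were Ndufs6 and Ndufs4, accessory subunits of the N module that oxidises NADH; Ndufs3, a core subunit of the Q module that reduces ubiquinone; Ndufb7 and Ndufa13, accessory subunits of the membrane arm; and Atp5b.

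The promoters of Ndufs6, Ndufs4 and Ndufb7, the 3 genes with an unadjusted limma p under 0.01 in any comparison, are shown. They were picked after their values were seen. The upstream bases of 2 of them hold letters of factors known to act on respiratory chain genes. Such letters were also found in many other windows of the set, as given below. Each line gives the 250 bases before the transcription start, 5′ to 3′ on the gene's strand, from RefSeq (GRCm38.p6). They lie at chr13:73328483-73328732 on the minus strand for Ndufs6, at chr13:114388095-114388344 on the minus strand for Ndufs4 and at chr8:83566508-83566757 on the plus strand for Ndufb7. Capitals mark matches in these bases to GCGCANGCG (as NRF-1 binds), CCGGAAG (as the ETS factor GABP binds), AAGATGG (as YY1 binds) or CCAAT (as NF-Y binds), searched on both strands.
Ndufs6: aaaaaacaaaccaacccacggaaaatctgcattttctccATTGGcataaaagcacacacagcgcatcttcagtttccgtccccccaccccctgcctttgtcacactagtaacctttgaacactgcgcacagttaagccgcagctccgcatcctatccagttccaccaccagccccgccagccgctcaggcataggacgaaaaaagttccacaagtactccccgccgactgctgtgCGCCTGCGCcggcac
Ndufs4: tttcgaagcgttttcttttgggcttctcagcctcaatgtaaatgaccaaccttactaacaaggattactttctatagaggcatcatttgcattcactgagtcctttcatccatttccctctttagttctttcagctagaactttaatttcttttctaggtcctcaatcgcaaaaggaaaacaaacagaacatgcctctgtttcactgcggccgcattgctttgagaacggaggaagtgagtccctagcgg
Ndufb7: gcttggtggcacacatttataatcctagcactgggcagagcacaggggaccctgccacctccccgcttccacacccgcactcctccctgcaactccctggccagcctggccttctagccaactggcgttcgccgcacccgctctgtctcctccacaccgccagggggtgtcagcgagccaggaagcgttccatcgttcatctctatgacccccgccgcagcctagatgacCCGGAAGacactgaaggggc
Counted from the start, the NRF-1 letters of Ndufs6 lie at -15 to -7 and the NF-Y letters at -211 to -207, both on the reverse strand. In Ndufb7 the ETS letters lie at -20 to -14. In the upstream bases of Ndufs4 none of the 4 motifs was found; the YY1 letters lie 36 to 42 bases after its start, and 34 to 40 bases after that of Ndufs6.

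Over the window from 250 bases before to 50 after the start, 60 of the 67 genes were matched by symbol, with 63 windows. The NRF-1 letters were in 28.6% of these windows, against 6.25% of all 32851 windows and 8.58% of the 21263 windows of coding genes. For the ETS letters the shares were 23.8%, 8.86% and 11.6%, and for the YY1 letters 17.5%, 6.34% and 6.24%. At least 1 of these 3 motifs was in 58.7% of the genes' windows, against 19.2% of all windows and 23.3% of those of coding genes. The NF-Y letters were in 41.3%, against 37.4% and 38.2%. The difference between strains had a median log2 value of 0.10 over the 18 genes with the NRF-1 letters (13 above 0) and of 0.07 over the 42 matched genes without them (29 above 0). For the YY1 letters the medians were 0.04 over 11 genes with them and 0.09 over 49 without, for the ETS letters 0.06 over 15 with and 0.09 over 45 without, and for the NF-Y letters 0.13 over 25 with and 0.05 over 35 without. None of these gaps was tested.

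In NY1DD the 66 genes had a median mean log2 ratio of 0.10, and 42 were above 0; over all features the median was -0.02, and 47.45% were above 0. In C57BL/6J the median was -0.03 with 30 genes above 0, against -0.00 and 49.87% over all features. The difference, NY1DD minus C57BL/6J, had a median of 0.07 with 44 genes (66.67%) above 0, against -0.01 and 48.3% over all features. These medians rest on single arrays. Array by array, the median over the genes was 0.21, 0.06 and 0.03 on NY1DD arrays 1 to 3, against -0.17, 0.07 and 0.04 on C57BL/6J arrays 1 to 3. NY1DD array 1 was the highest and C57BL/6J array 1 the lowest, and the other 4 lay close together. Without C57BL/6J array 1 the median difference was 0.00, with 33 of 66 genes above 0. Without NY1DD array 1 the NY1DD median was 0.03.

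**Figure D1:**
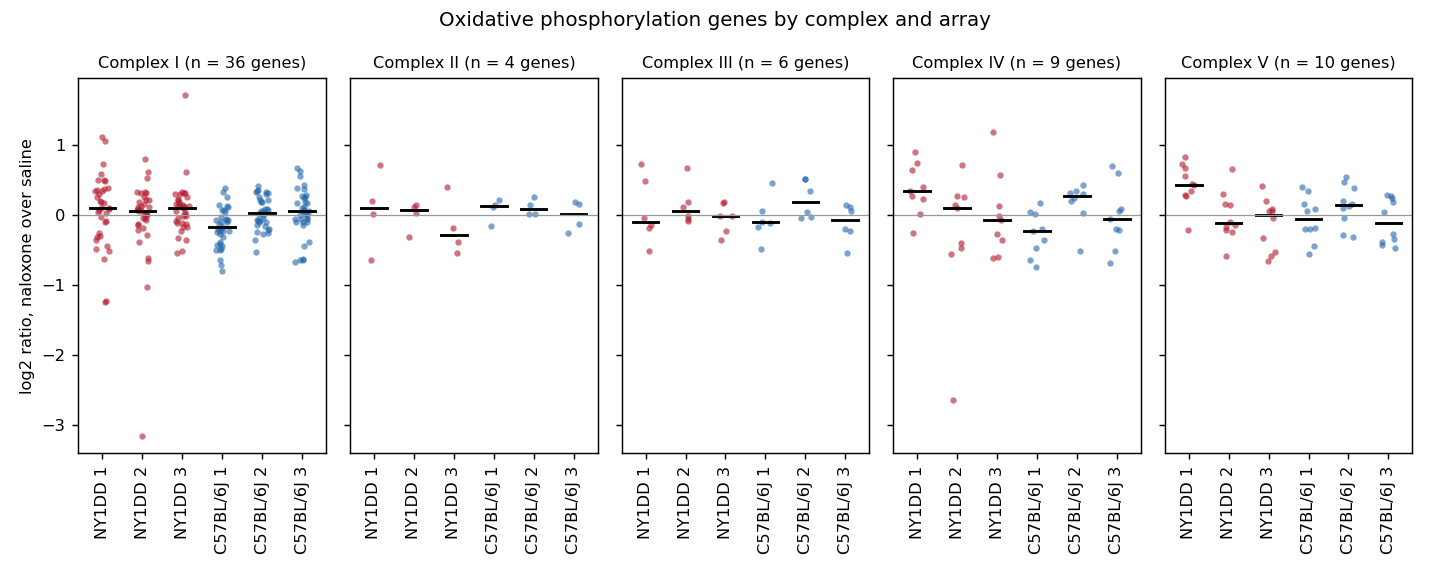
Log2 ratio, naloxone over saline, of each gene (points) on each of the 6 arrays, by complex, with the median over genes as a bar, for NY1DD (red) and C57BL/6J (blue). Most genes lie within 1 log2 unit of 0 on every array, and the lowest points are Ndufaf8 (-3.16) and Cox8a (-2.64), both on NY1DD array 2.

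The same sign on all 3 NY1DD arrays was seen above 0 for 15 of 66 genes (22.7%), against 13.6% of all features, and below 0 for 7 of 66 (10.6%), against 14.9%. The 15 genes came from complexes I, III, IV and V and included Cycs; no gene of complex II was among them or among the 7. On the C57BL/6J arrays, 9 of 65 genes (13.8%) were above 0 on all 3, against 14.2% of all features, and 9 of 65 (13.8%) were below 0 on all 3, against 17%. Cox6a1 was above 0 on all 6 arrays; Atp5b and Ndufaf8 were below 0 on all 6. Past 1.5-fold on one side on all 3 arrays lay 0 of 66 genes in NY1DD, against 0.623% of all features, and 0 of 65 in C57BL/6J, against 0.991%.

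An unadjusted p under 0.05 was reached in NY1DD above 0 by 1 gene, Ndufs6 (3.46% of all features), and below 0 by 2, Ndufs3 and Ndufs4 (4.89%). In C57BL/6J it was reached above 0 by Ndufs4 alone (1.76%) and below 0 by Atp5b and Ndufb7 (5.17%). The difference reached it above 0 for Ndufs6 (2.75%) and below 0 for Ndufs4 (1.76%). In the average of both strains, Ndufs6 reached it above 0 (3.4%) and Atp5b, Ndufa13 and Ndufb7 below 0 (7.37%). With 66 genes, 1 gene is 1.52%, 2 genes are 3.03% and 3 genes are 4.55%, so each of these counts lies below the share of all features.

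**Figure D2:**
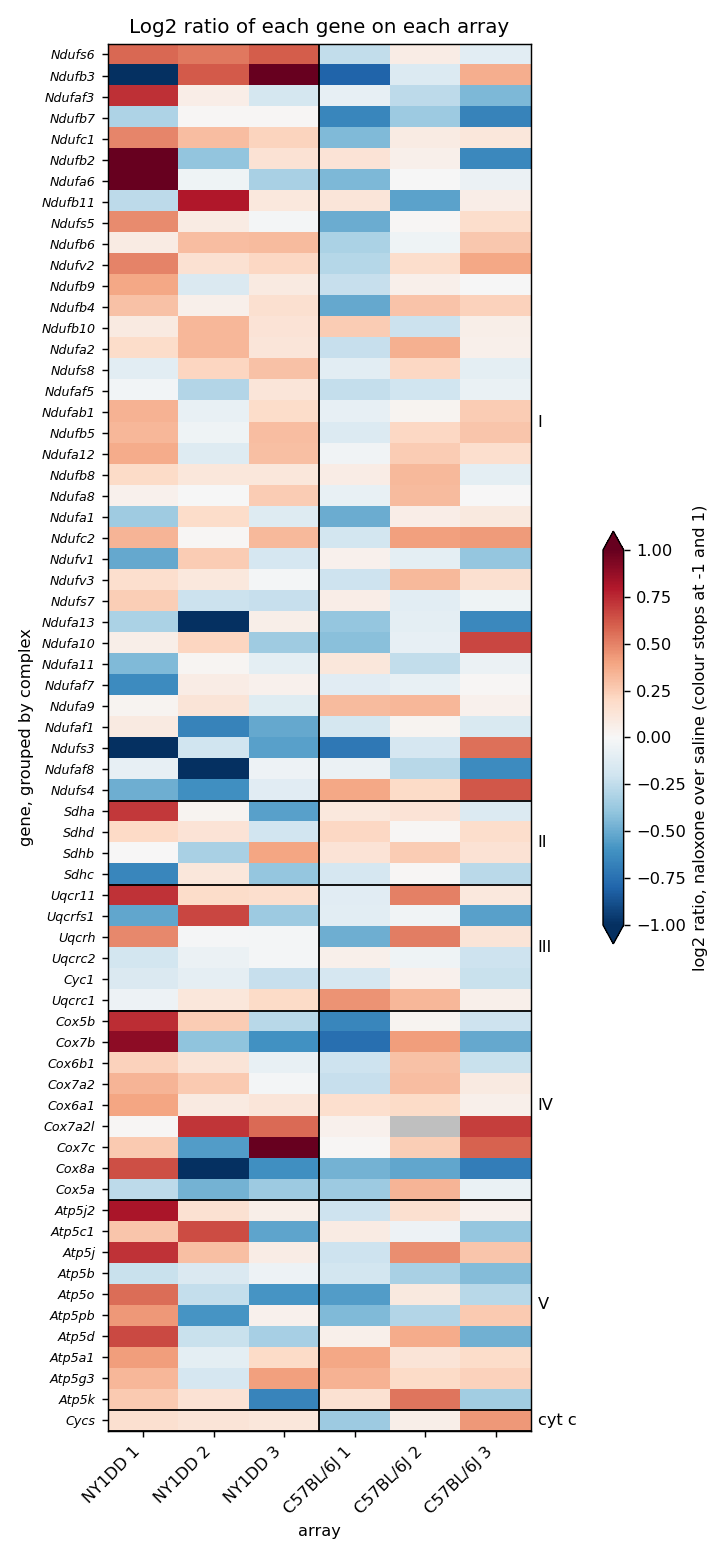
Log2 ratio, naloxone over saline, of the 66 genes (rows, grouped by complex and ordered by the difference between strains) on the 3 NY1DD arrays (left) and the 3 C57BL/6J arrays (right), with colour stopping at -1 and 1 and grey for a missing value. In each strain most rows hold both signs, and the top row, Ndufs6, is the clearest on the NY1DD arrays (0.57, 0.53 and 0.61).

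Complex I is the largest enzyme of the chain, with a peripheral arm (N and Q modules) and a membrane arm. Its 36 genes had a median log2 ratio of 0.14 in NY1DD (23 above 0), of -0.06 in C57BL/6J (15 above 0) and a median difference of 0.08 (25 above 0). By array the medians were 0.09, 0.06 and 0.10 in NY1DD, against -0.18, 0.02 and 0.05 in C57BL/6J. The arrays of the strains did not overlap in this median, but the lowest NY1DD array and the highest C57BL/6J array were 0.06 and 0.05. Without C57BL/6J array 1 the median difference of the complex was 0.0077. Within the complex, the median difference was 0.10 over the 8 measured genes of the N module and -0.13 over the 4 of the Q module. It was 0.15 over the 19 other subunits, most of them of the membrane arm. Of these, 16 (84.21%) were above 0, against 48.3% of all features. Their medians by array overlapped between strains, with 0.09, 0.05 and 0.14 in NY1DD, against -0.23, 0.03 and 0.10 in C57BL/6J. Of the 5 assembly factors, which build the complex and are not part of it, 5 had a mean below 0 in C57BL/6J and 4 in NY1DD.

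Ndufs6, a zinc-binding subunit needed late in assembly, had log2 ratios of 0.57, 0.53 and 0.61 on the NY1DD arrays, against -0.24, 0.07 and -0.10 on the C57BL/6J arrays. The strains did not overlap, and the SD over the NY1DD arrays was 0.04. The NY1DD mean was 0.57 (SE 0.13 in limma's model, unadjusted p = 0.00314, adjusted p = 0.489). The difference was 0.66 (SE 0.18, 95% interval 0.23 to 1.10), a ratio 1.58-fold higher in NY1DD, with an unadjusted limma p of 0.00872 and an adjusted p of 0.969.

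Ndufs4, whose loss causes Leigh-like brain disease in mice and humans, had log2 ratios of -0.49, -0.61 and -0.11 on the NY1DD arrays, against 0.39, 0.19 and 0.62 on the C57BL/6J arrays. All NY1DD arrays were below 0 and all C57BL/6J arrays above it. The difference was -0.80 (SE 0.22, 95% interval -1.33 to -0.27), a ratio 1.74-fold higher in C57BL/6J, with an unadjusted limma p of 0.00887 and an adjusted p of 0.969. The probe of Ndufs4 lies in plate well g6, and the median of all probes in that well was -0.74 on NY1DD array 2. With the median of its well removed on each array, its values were -0.80, 0.12 and -0.30 in NY1DD, against 0.24, -0.03 and 0.45 in C57BL/6J. The strains then overlapped, and the difference was -0.54 (limma adjusted p = 0.918). Under the same correction the arrays of the strains still did not overlap for Ndufs6, whose difference was 0.58, nor for Ndufb7 and Ndufc1. Ndufaf3, Ndufa9 and Uqcrc1 overlapped before the correction but not after it. The share of all features without overlap was not computed under this correction.

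Ndufb7, an accessory subunit on the intermembrane side, had log2 ratios of -0.31, 0.01 and 0.01 on the NY1DD arrays, against -0.65, -0.36 and -0.67 on the C57BL/6J arrays. The arrays of the strains did not overlap, with C57BL/6J lower. Its C57BL/6J mean was -0.56 (SE 0.14, limma adjusted p = 0.302), and the difference was 0.47 (SE 0.20, 95% interval -0.01 to 0.94). The average of both strains was -0.33 (limma adjusted p = 0.314). Ndufc1, a small membrane arm subunit picked out after its values were seen, was the other gene whose strains did not overlap before well medians were removed. It had 0.49, 0.31 and 0.22 in NY1DD, against -0.44, 0.08 and 0.11 in C57BL/6J. In all, 3 of 65 genes (4.62%) had every NY1DD array above every C57BL/6J array, against 5.21% of all features, and 1 of 65 (1.54%) had every NY1DD array below, against 4.2%.

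**Figure D3:**
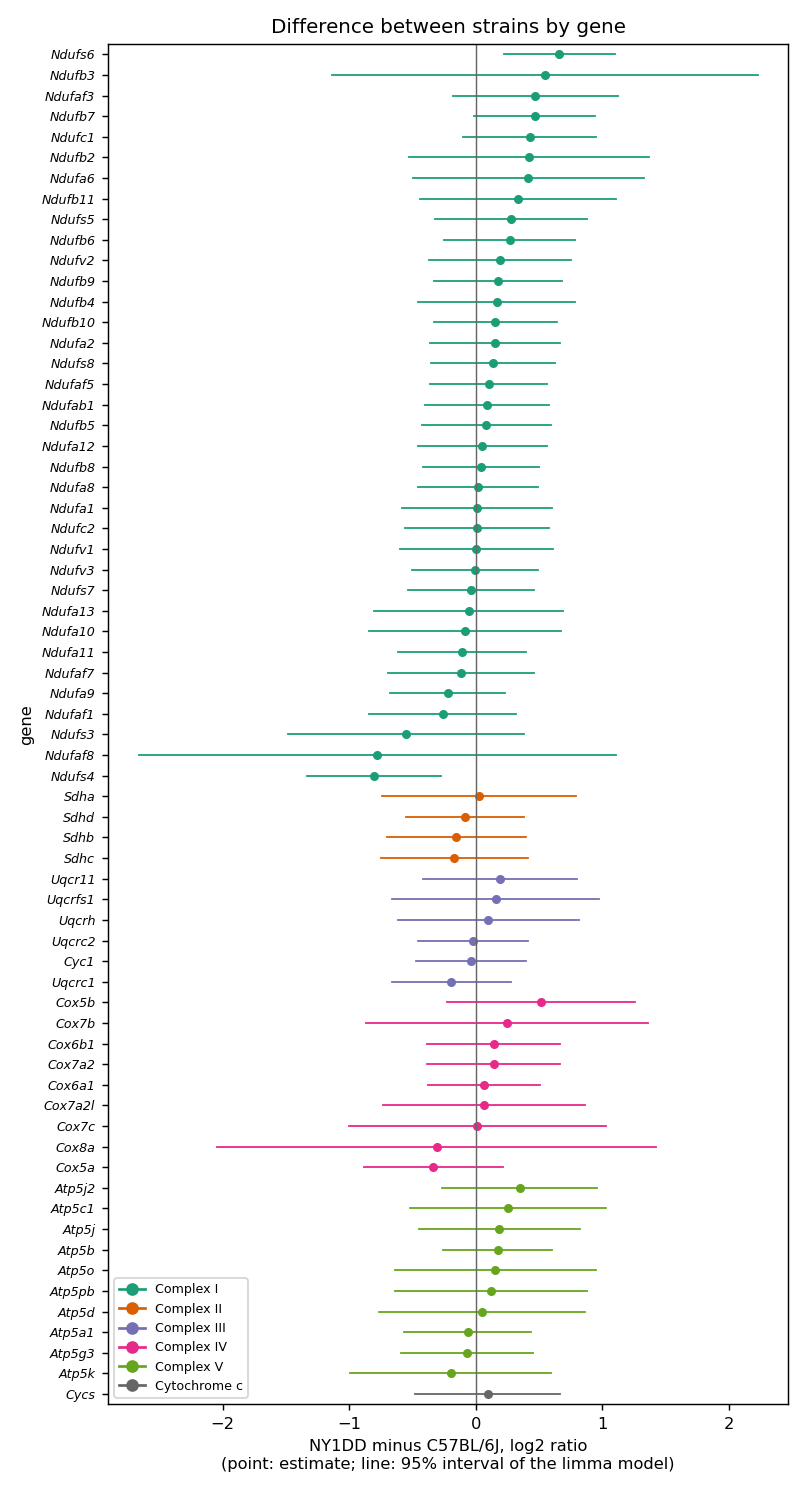
Difference between strains (NY1DD minus C57BL/6J, log2 ratio) for each of the 66 genes, coloured by complex, with the 95% interval of limma's model as a line. The intervals of Ndufs6 (0.23 to 1.10) and Ndufs4 (-1.33 to -0.27) leave out 0; those of all the other genes include it.

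The core subunits include those that carry the electrons, and Ndufs3. Ndufv1, which holds the flavin that accepts electrons from NADH, had -0.52, 0.25 and -0.17 in NY1DD, against 0.04, -0.10 and -0.39 in C57BL/6J. Ndufv2, an iron-sulphur subunit beside it, had 0.49, 0.16 and 0.21 in NY1DD, against -0.28, 0.17 and 0.39 in C57BL/6J. Both overlapped between strains. Ndufs3 had -1.24, -0.20 and -0.55 in NY1DD, against -0.72, -0.16 and 0.55 in C57BL/6J. Its NY1DD mean was -0.66 (SE 0.28, limma adjusted p = 0.588), and NY1DD array 1 was the lowest of its 6 values. Ndufs7, which holds the last iron-sulphur cluster before ubiquinone, had 0.25, -0.22 and -0.23 in NY1DD, against 0.06, -0.10 and -0.04 in C57BL/6J. Ndufs8, another iron-sulphur subunit, had -0.10, 0.21 and 0.30 in NY1DD, against -0.10, 0.20 and -0.10 in C57BL/6J. These 5 subunits therefore gave no shared direction in either strain.

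Ndufaf8, an assembly factor, had the lowest value of the set, with -0.08, -3.16 and -0.05 in NY1DD, against -0.06, -0.28 and -0.63 in C57BL/6J. NY1DD array 2 alone set its NY1DD mean of -1.10: without that array the mean was -0.07, and the difference was 0.25 in place of -0.78. Its probe lies in plate column 12, where the well medians on NY1DD array 2 ran from -0.92 to -0.05. With well medians removed, Ndufaf8 had 0.02, -2.30 and -0.11 in NY1DD, against -0.11, -0.33 and -0.61 in C57BL/6J, and NY1DD array 2 remained its lowest. The difference was then -0.45. Ndufa13, also known as GRIM-19, had -0.32, -1.03 and 0.06 in NY1DD, against -0.39, -0.10 and -0.64 in C57BL/6J. It is the mean of a probe with 0.24, 0.00 and 0.20 in NY1DD, against 0.06, -0.00 and -0.88 in C57BL/6J, and of another with -0.87, -2.06 and -0.09 in NY1DD, against -0.83, -0.19 and -0.41 in C57BL/6J. The lower probe lies in well h6, whose median on NY1DD array 2 was -0.97. With well medians removed, Ndufa13 had -0.29, -0.53 and -0.01 in NY1DD, against -0.45, -0.16 and -0.46 in C57BL/6J.

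Complex II, succinate dehydrogenase, links the citric acid cycle to the chain. Sdha, the flavoprotein, had 0.70, 0.03 and -0.54 in NY1DD, against 0.11, 0.14 and -0.14 in C57BL/6J. Sdhb, the iron-sulphur subunit, had 0.00, -0.32 and 0.40 in NY1DD, against 0.14, 0.25 and 0.15 in C57BL/6J. Among the membrane anchors, Sdhc had -0.65, 0.11 and -0.38 in NY1DD, against -0.17, 0.01 and -0.27 in C57BL/6J. Sdhd had 0.20, 0.13 and -0.19 in NY1DD, against 0.20, 0.01 and 0.18 in C57BL/6J. All 4 genes overlapped between strains. The SDs of Sdha, Sdhb, Sdhc and Sdhd were 0.62, 0.36, 0.39 and 0.21 in NY1DD, against 0.15, 0.06, 0.14 and 0.11 in C57BL/6J. A wider spread in NY1DD was not particular to complex II: Atp5g3 had SDs of 0.32 and 0.08, while Cycs had 0.02 and 0.40. With well medians removed, Sdhb had 0.25 on NY1DD array 2. Sdhd then had 0.22, 0.07 and -0.07 in NY1DD, against 0.23, 0.09 and 0.39 in C57BL/6J, no longer wider in NY1DD. The difference in spread was not tested. The median difference of the complex was -0.12, with 1 of 4 genes above 0.

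Complex III passes electrons from ubiquinol to cytochrome c. Its catalytic subunits are cytochrome c1, from Cyc1, and the Rieske iron-sulphur protein, from Uqcrfs1, beside a cytochrome b encoded by mitochondrial DNA. Cyc1 had -0.15, -0.09 and -0.23 in NY1DD, against -0.17, 0.04 and -0.23 in C57BL/6J, a narrow range with a difference of -0.04 (SE 0.18). Uqcrfs1 had -0.52, 0.67 and -0.36 in NY1DD, against -0.11, -0.04 and -0.54 in C57BL/6J. Uqcrc1 and Uqcrc2 are its large core proteins. Uqcrc1 had -0.05, 0.11 and 0.19 in NY1DD, against 0.45, 0.33 and 0.05 in C57BL/6J, and Uqcrc2 had -0.18, -0.06 and -0.02 in NY1DD, against 0.05, -0.04 and -0.21 in C57BL/6J. Uqcr11, the smallest subunit, had 0.72, 0.18 and 0.17 in NY1DD, against -0.11, 0.50 and 0.11 in C57BL/6J. Over the 6 measured genes the median was 0.01 in NY1DD and -0.01 in C57BL/6J, with 3 of 6 above 0 in each strain. Cycs, the soluble carrier between complexes III and IV, had 0.16, 0.13 and 0.11 in NY1DD, against -0.37, 0.06 and 0.44 in C57BL/6J. Its NY1DD means were nearly equal (SD 0.02), but they average a probe with 0.32, 0.11 and -0.05 and another with 0.01, 0.15 and 0.28 on the same arrays. The C57BL/6J means lay on both sides of them.

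Complex IV, cytochrome c oxidase, has a core encoded by mitochondrial DNA and nuclear subunits around it, several of which have tissue isoforms. Its 9 genes had a median of 0.19 in NY1DD (6 above 0) and of -0.03 in C57BL/6J (4 above 0). By array the medians were 0.34, 0.09 and -0.07 in NY1DD, against -0.23, 0.27 and -0.06 in C57BL/6J, so that each strain held both signs. With an array left out in turn, the NY1DD median ran from 0.03, without NY1DD array 1, to 0.24, and the C57BL/6J median from -0.21, without C57BL/6J array 2, to 0.12, without C57BL/6J array 1. Cox5b had the highest difference of the complex, with 0.74, 0.26 and -0.28 in NY1DD, against -0.65, 0.03 and -0.21 in C57BL/6J. Cox5a, which binds a regulatory thyroid hormone metabolite, had the lowest, with -0.26, -0.48 and -0.36 in NY1DD, against -0.36, 0.34 and -0.06 in C57BL/6J. Neither difference, 0.52 (95% interval -0.23 to 1.26) for Cox5b and -0.34 (-0.89 to 0.21) for Cox5a, left out 0.

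The isoforms measured were those found in most tissues. Cox6a1 had 0.39, 0.09 and 0.12 in NY1DD, against 0.16, 0.19 and 0.05 in C57BL/6J. Cox6b1, which faces cytochrome c, had 0.23, 0.13 and -0.07 in NY1DD, against -0.21, 0.29 and -0.22 in C57BL/6J. Cox7a2 had 0.34, 0.26 and -0.02 in NY1DD, against -0.23, 0.31 and 0.09 in C57BL/6J. All 3 overlapped between strains, with differences between 0.06 and 0.14. Cox7a2l had 0.01, 0.71 and 0.56 in NY1DD, against 0.04 and 0.69 on C57BL/6J arrays 1 and 3. Its value on C57BL/6J array 2 was at the lower limit of the deposited table and was treated as missing; with it kept, the C57BL/6J mean was -1.97 in place of 0.37. Cox7c, a small subunit that spans the membrane, had 0.26, -0.56 and 1.18 in NY1DD, against 0.01, 0.24 and 0.59 in C57BL/6J. Cox8a, the smallest of these subunits and an isoform found in most tissues, had 0.64, -2.64 and -0.62 in NY1DD, against -0.47, -0.52 and -0.69 in C57BL/6J. As for Ndufaf8, the lowest value of Cox8a stands on NY1DD array 2 and its probe lies in plate column 12; without that array the NY1DD mean was 0.01 in place of -0.87, and the difference 0.57 in place of -0.31. With well medians removed, Cox8a still had -1.72 on that array, with an NY1DD mean of -0.57 and a difference of -0.07.

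Complex V makes ATP with a catalytic F1 head turned by a membrane rotor. Its 10 genes had a median of 0.08 in NY1DD (6 above 0), of -0.01 in C57BL/6J (4 above 0) and a median difference of 0.14 (7 above 0). The NY1DD arrays had medians of 0.42, -0.12 and -0.00, against -0.07, 0.14 and -0.12 for the C57BL/6J arrays, and without NY1DD array 1 the median difference was -0.12. Atp5a1, the alpha subunit of F1, had 0.42, -0.10 and 0.19 in NY1DD, against 0.39, 0.13 and 0.18 in C57BL/6J. Atp5g3, a source of the rotor's c ring, had 0.33, -0.17 and 0.41 in NY1DD, against 0.34, 0.19 and 0.23 in C57BL/6J. Both were above 0 on 5 of 6 arrays, with a difference between strains of -0.06 and -0.07. Atp5j, of the peripheral stalk, had 0.72, 0.30 and 0.08 in NY1DD, against -0.21, 0.47 and 0.28 in C57BL/6J. Atp5j2, subunit f of the membrane part, had 0.82, 0.15 and 0.06 in NY1DD, against -0.21, 0.16 and 0.04 in C57BL/6J, the highest difference of the complex at 0.35 (95% interval -0.27 to 0.96). Atp5k, subunit e beside it, had 0.26, 0.15 and -0.66 in NY1DD, against 0.15, 0.53 and -0.35 in C57BL/6J, the lowest at -0.20 (-0.99 to 0.59).

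Atp5b, the catalytic beta subunit, had -0.23, -0.14 and -0.05 in NY1DD, against -0.19, -0.32 and -0.44 in C57BL/6J. The C57BL/6J mean was -0.31 (limma adjusted p = 0.710) and the average of both strains -0.23 (limma adjusted p = 0.440). These values are means of probes with opposite signs on 6 of 6 arrays. One probe had 0.55, 0.09 and 0.32 in NY1DD, against 0.43, 0.10 and 0.30 in C57BL/6J; the other had -0.998, -0.37 and -0.43 in NY1DD, against -0.80, -0.74 and -1.17 in C57BL/6J. The probes of Atp5b thus lay up to 1.55 apart on an array, and no direction can be given for the gene.

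**Figure D4:**
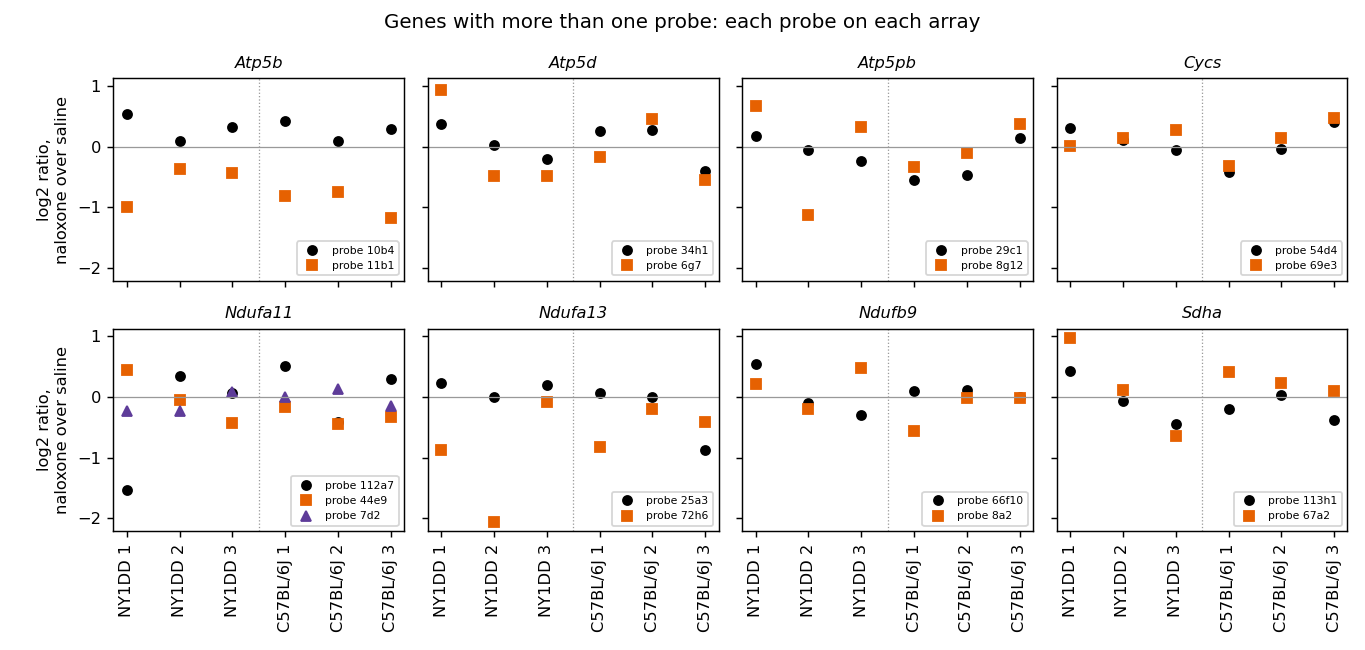
Log2 ratio, naloxone over saline, of each probe (symbols) on each of the 6 arrays for the 8 genes with more than 1 probe, with NY1DD left and C57BL/6J right of the dotted line. The probes of Atp5b lie on opposite sides of 0 on all 6 arrays, while those of Cycs and Atp5pb share a sign on 4 and 5 of 6.

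Atp5b was 1 of 8 genes with more than 1 probe. Ndufa11, a membrane arm subunit with 3 probes, also had no array on which all its probes shared a sign. The probes of Ndufa13 and Ndufb9 shared a sign on 2 of 6 arrays, those of Sdha on 3, those of Atp5d and Cycs on 4 and those of Atp5pb on 5. Each other gene rested on a single probe. Pearson's r between arrays over the 66 genes, which are not replicates of each other, ran from -0.15 (NY1DD arrays 1 and 3) to 0.46 (NY1DD array 3 and C57BL/6J array 3). Over all features it ran from -0.07 to 0.19.

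**Figure D5:**
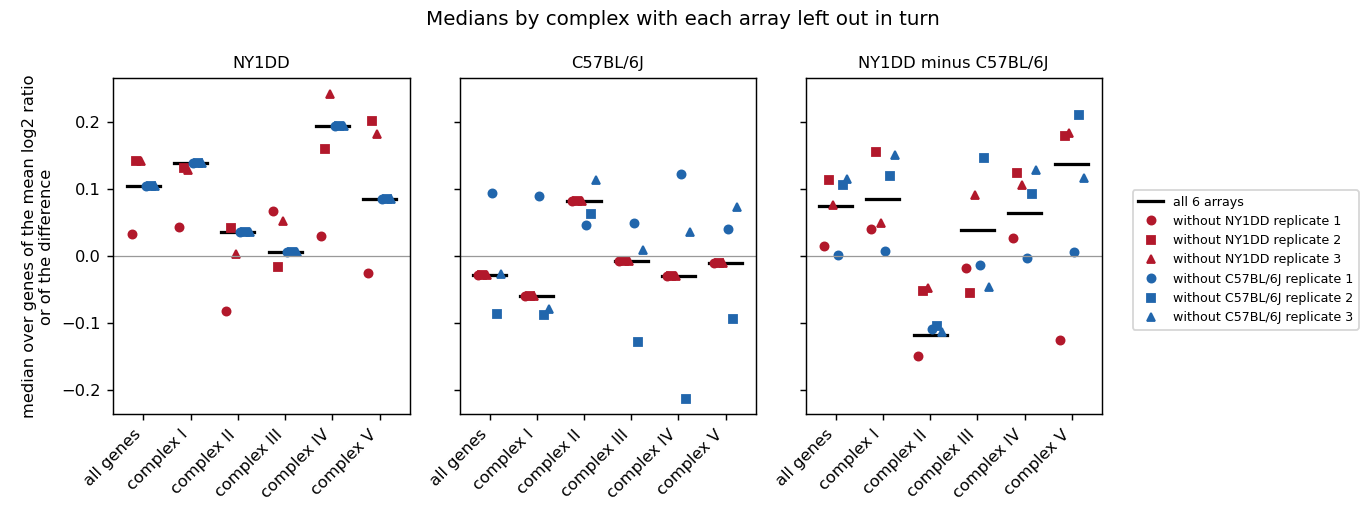
Median over genes of the mean log2 ratio in NY1DD and C57BL/6J and of the difference (NY1DD minus C57BL/6J), for all 66 genes and by complex, with all 6 arrays (bars) and with each array left out in turn (symbols). The median difference over all genes moves to 0.00 without C57BL/6J array 1, and that of complex V moves to -0.12 without NY1DD array 1.

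Of 74 other genes of the pathway on a list of assembly factors, coenzyme Q enzymes, regulators and carriers, 35 were measured, and 0 passed limma's adjusted test in any comparison. At an unadjusted p under 0.05 the list had 2 genes above 0 (5.71%, against 3.46% of all features) and 2 below (5.71%, against 4.89%) in NY1DD. In C57BL/6J it had 3 above (8.57%, against 1.76%) and 1 below (2.86%, against 5.17%), and in the difference 0 above (0%, against 2.75%) and 1 below (2.86%, against 1.76%). In the average of both strains it had 4 above (11.4%, against 3.4%) and 5 below (14.3%, against 7.37%). Its median was 0.00 in NY1DD and 0.04 in C57BL/6J, and the median difference was -0.04. Atpaf2, which helps to assemble the F1 head, was the gene below 0 in the difference. It had -0.54, -1.74 and -0.78 in NY1DD, against -0.02, 0.07 and -0.05 in C57BL/6J, and the strains did not overlap. The NY1DD mean was -1.02 (SE 0.23, limma adjusted p = 0.489). For Yy1 of the list, too, every NY1DD array lay below every C57BL/6J array, as for 4.2% of all features. The listed genes under 0.05 in NY1DD were Coa6 and Atpif1 above 0 and Acad9 and Atpaf2 below. In C57BL/6J they were Atpaf1, Vdac2 and Yy1 above 0 and Lyrm7 below. Lyrm7 had -0.73, 0.09 and -0.19 in NY1DD, against -0.69, -0.42 and -1.26 in C57BL/6J. Yy1, whose probe lies in well g6 like that of Ndufs4, had 0.16, -0.61 and 0.10 in NY1DD, against 0.38, 1.01 and 0.29 in C57BL/6J. The median of that well was -0.74 on NY1DD array 2, and its part in the values of Yy1 was not tested. Coa6, an assembly factor of complex IV, had 0.71, 1.08 and 0.27 in NY1DD, against -0.74, 0.19 and 0.37 in C57BL/6J. Atpif1, the inhibitor of ATP hydrolysis by complex V, had 0.59, 0.26 and 0.22 in NY1DD, against -0.20, 0.23 and -0.06 in C57BL/6J. Slc25a3, the phosphate carrier that feeds complex V, was above 0 on every array, with 0.30, 0.27 and 0.26 in NY1DD, against 0.44, 0.12 and 0.27 in C57BL/6J. Slc25a5 and Vdac2 of the list were also above 0 on every array, while Uqcc1 and Coq7 were below 0 on every array. The share of all features on one side of 0 on all 6 arrays was not computed.

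Of the brain cell markers, 8 of 8 neuronal genes were measured, 7 of 8 of astrocytes, 6 of 8 of oligodendrocytes, 3 of 8 of microglia, 5 of 6 of endothelium, 2 of 4 of choroid plexus and 0 of 5 of blood, and 0 passed limma's adjusted test in any comparison. At an unadjusted limma p under 0.05, the neuronal, microglial, endothelial and choroid plexus lists had 1 gene each in NY1DD. Of all 9685 features, 809 reached it there. In C57BL/6J the neuronal, microglial and choroid plexus lists had 1 each, against 671 features. In the difference no list had a gene, against 436 features. In the average the neuronal list had 2 and the oligodendrocyte, microglial and choroid plexus lists 1 each, against 1043. The lists are short, so 1 gene is a large share of a list. The neuronal markers had medians of 0.19, 0.03 and 0.04 on the NY1DD arrays, against -0.11, 0.04 and 0.27 on the C57BL/6J arrays. C57BL/6J array 1 was the lowest of the 6 for this list, as for the endothelial list and the oxidative phosphorylation genes. The highest for the neuronal markers was C57BL/6J array 3, where the oxidative phosphorylation genes had a median of 0.04. The oligodendrocyte markers had 0.41, 0.02 and 0.10 in NY1DD, against 0.17, 0.10 and 0.06 in C57BL/6J, and the choroid plexus markers 0.84, 0.02 and 0.18 in NY1DD, against 0.03, 0.44 and 0.92 in C57BL/6J. The astrocyte markers had -0.10, -0.10 and -0.20 in NY1DD, against 0.01, 0.03 and -0.02 in C57BL/6J. The endothelial markers had 0.18, 0.09 and 0.15 in NY1DD, against -0.03, -0.01 and 0.26 in C57BL/6J, and the microglial markers 0.13, -0.11 and 0.33 in NY1DD, against -0.08, 0.12 and -0.05 in C57BL/6J. NY1DD array 1 was the highest NY1DD array for the neuronal, oligodendrocyte, endothelial and choroid plexus lists and for the oxidative phosphorylation genes; the part of cell makeup in those values was not tested.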

How the data were processed

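The authors deposited 1 table of natural log (ln) ratios of both channels for 6 arrays; base e was read from the values, since 401 of them were whole multiples of 0.1 after back-transformation, against 1 with base 2 and 2 with base 10 (tolerance 1e-06). How the ratios were normalised, background-corrected and filtered, and with which software, is not given in the sources used here. Intensities of single channels were not used here; the number of arrays limits the precision. Per the labels, Cy5 held naloxone RNA and Cy3 saline RNA; the direction of the ratio is taken from this and is likely, not stated. Sample titles carry a number of unstated meaning: C57BL/6J arrays 1 and 2 share 915, the others have 817, 819, 825 and 921, and 0 numbers occur in both strains, so if it marks a batch, batch and strain cannot be told apart.

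Of 11532 spots, 30 controls were left out. Genes were named from the platform annotation: 7906 of 11502 probes had 1 symbol, 297 several and 3299 none. Values were converted to log2; 293 at the lower limit (a ratio of 0.01) were treated as missing. A probe needed values on at least 2 arrays of each strain, arrays were centred on their medians, and probes of a symbol were averaged, which gave 9685 features (6146 genes).

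Limma 3.58.1 (R 4.3.3) estimated each strain's mean from that strain's own arrays. The spread of each feature was estimated over the 6 arrays together. P-values were adjusted by Benjamini-Hochberg over all features. Tests were two-sided, and SE values are the model's. The method was also run on simulated data, but the settings and outcome of that run are not given here. That run therefore does not show the power of the tests at the effect sizes of these arrays. Genes with values on each array were, per complex and comparison, the highest and lowest; those with an unadjusted p under 0.05; isoform groups; complex II, Cycs and core subunits. Members, lists and rules were chosen with earlier results of these data known. Replicate numbers did not pair the strains: deviations of same-numbered arrays correlated at -0.07, 0.06 and 0.02. Alternatives changed centring, scaling, missing values, the lower limit, probe averaging, well position, a replicate block and each array in turn. Promoters came from RefSeq (GRCm38.p6).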

Additional observations from a re-analysis of the deposited data

Results flagged for a closer look

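Ndufs4, an accessory subunit of complex I, drew a closer look because all 3 NY1DD arrays lay below 0 and all 3 C57BL/6J arrays above it. The difference between strains was -0.80 and did not pass limma's test of that difference (adjusted p = 0.969). The same pattern was not seen with the well medians removed, where NY1DD array 2 had 0.12 and C57BL/6J array 2 had -0.03. The part of plate position in this result was not tested further.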

How the results depend on the processing

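Under the 14 alternatives, 0 features and 0 genes of the set passed limma's adjusted test in any comparison, and the lowest adjusted p of a named gene was 0.152. Of 1425 values of named genes, 85 took another sign and 15 moved by more than 1 SD between arrays. Leaving out a single array cannot move a mean or a difference by more than that SD, so the 15 do not measure those settings. Without NY1DD array 2, for example, the NY1DD mean of Ndufaf8 went from -1.10 to -0.07 and is not among the 15. Of 252 medians, 27 took another sign. With a single array left out in turn, the number of features with an unadjusted p under 0.05 ran from 614 to 1119 in NY1DD and from 297 to 589 in the difference. The median of complex I in NY1DD was 0.17 without centring, 0.081 with well medians removed and 0.043 to 0.14 with an array left out, lowest without NY1DD array 1; its median in C57BL/6J ran from -0.088 to 0.089, highest without C57BL/6J array 1. The median difference of complex V ran from -0.12, without NY1DD array 1, to 0.21. With no filter on missing values, which lets Uqcrq in, the NY1DD median of complex III was -0.071. With 1 probe per gene, the C57BL/6J median of complex II was -0.0052. Over all 66 genes the median difference ran from 0.00 to 0.11 and the number above 0 from 33 to 47; both lowest values came without C57BL/6J array 1. With the replicate number as a block, 0 features passed in any comparison, and the difference of Cox7a2l, missing on an array, was -0.08 in place of 0.06; the numbers do not pair the strains. For the other moves the cause was not tested. Signal over background is unknown, which limits every value.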
